A study of Mus musculus with 6 samples.

Results

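The 3 wild-type libraries of ribosome-bound messenger RNA from brain endothelial cells of mouse embryos at E14.5 (E counts embryonic days) were described as a baseline, with no contrast against another genotype. Genes counted as members where their level averaged 1 RPKM or more over these libraries, where RPKM is reads per kilobase of transcript and per 1000000 reads, a level per length that can be set side by side between genes. Of 23827 listed genes, 12494 were members, or 52.4%, and 18552 had any read. The study holds 6 libraries, 3 from wild-type embryos and 3 from embryos that overexpress Axin1 from the Rosa26 locus, and the latter were not used here. The wild-type embryos had the mixed background C57BL/6 x 129/Sv and their mothers had received tamoxifen at E12.5, as had those of the other group. Translating ribosome affinity purification isolates tagged ribosomes of a chosen cell type with the RNA bound to them, so the values describe ribosome-bound RNA and not total RNA. Which promoter drove the tag, and how many embryos made up a library, is not stated in any source used here. The labels name the libraries biological replicates. Values after ± are SDs over these 3 libraries (n = 3), and with a single group no test was made.

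Endothelial cells line blood vessels, and those of the brain form the blood-brain barrier. They seal the gaps between cells with tight junctions, hold back transport in vesicles, pump out foreign compounds and import nutrients through carriers. Much of this programme is laid down in the embryo, when Wnt ligands from neural progenitors signal through Frizzled receptors and beta-catenin in the ingrowing vessels.

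The libraries held 62507580, 53523988 and 57802316 reads in replicates 1 to 3, recovered from the deposited values. At this depth 3 reads on a transcript of 1 kb, the limit that a count of 0 allows, came to between 0.0480 and 0.0560 RPKM, for counting error only. The members had a median level of 12.2 RPKM and a top 10% (1250 genes) above 60.01 RPKM. Spread between libraries was measured as the CV, the SD of the 3 values as a percentage of their mean. The median CV of members was 6.86%, where counting alone would give 2.23%, and 221 members (1.77%) had a CV over 30%. Just inside the limit of 1 RPKM lay Cacnb2, Grik4 and Nxpe4 (means of at most 1.001 RPKM), and just outside it Katnal2, Rpl10 and Zfp185 (means that round to 0.999 RPKM).

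The 5 genes that mark brain endothelium were all high. Pecam1, an adhesion molecule of endothelial borders, had 337, 370.1 and 352 RPKM in replicates 1, 2 and 3, a mean of 353 ± 16.6 RPKM (SD, n = 3). Cdh5, the cadherin of endothelial junctions, had 368, 348 and 393 RPKM. Their ranges overlapped, and they ranked 73 and 68 of all listed genes. Cldn5, the main claudin of brain vessels, had 1349.7, 1291 and 1147 RPKM and ranked 5. Slc2a1, the glucose carrier of the barrier, had 698, 713 and 754 RPKM and ranked 25. Mfsd2a, which carries lysolipids and holds back vesicle transport, had 176, 172 and 162 RPKM and ranked 258. Mfsd2a, the lowest of the 5, stood above 97.9% of the members, and the CVs of the 5 lay between 4.004% and 8.24%. The defining markers of the labelled cell type were thus present in every library.

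**Figure D1:**
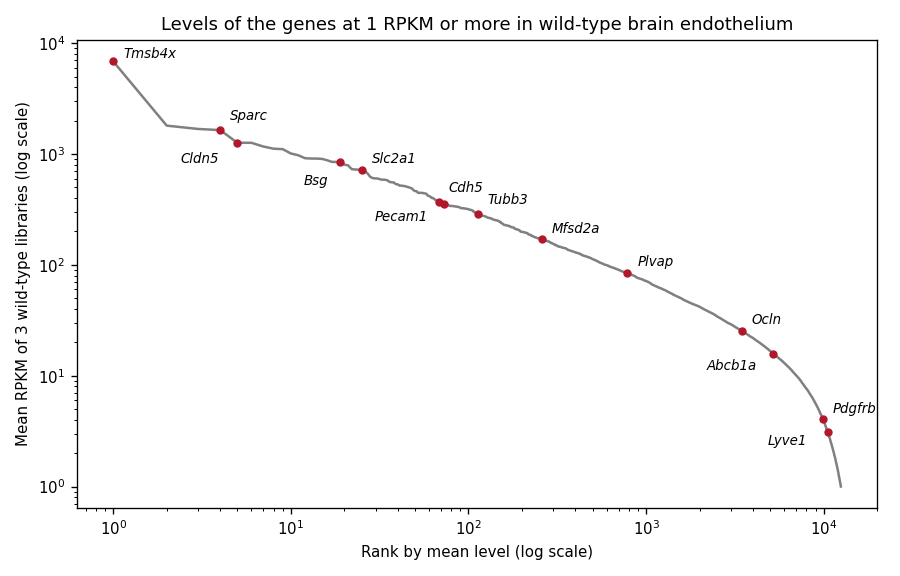
Mean RPKM of the 3 wild-type libraries (vertical, log scale) against rank (horizontal, log scale) for the 12494 members, with named genes in red. Cldn5 and Slc2a1 lie among the 25 highest genes, while Abcb1a, Pdgfrb and Lyve1 lie far down the curve.

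Structural and secreted products headed the ranking. Tmsb4x, which binds actin monomers, was the highest gene at 6836 ± 526 RPKM (SD, n = 3) and made up 1.89% of the summed RPKM. Actb, Pfn1, Vim, Tubb5 and Cfl1, all of the cytoskeleton, had means of 1803, 1262, 1167, 909.96 and 909 RPKM. Sparc, a secreted matrix protein, ranked 4 with 1663, 1588 and 1674 RPKM. Endothelial genes stood among these: Cldn5 ranked 5, Ramp2, the partner of the adrenomedullin receptor, ranked 16, and Igfbp7, a secreted binder of growth factors in vessel walls, ranked 12. The carrier genes Bsg and Slc7a5 ranked 19 and 20. The 20 highest also included Ddx24, Mest, Gnas, Rpl8, Tsc22d1, Gnai2 and Rn45s, with means between 848 and 1682 RPKM. Rn45s is the precursor of ribosomal RNA, which has no poly(A) tail, and had 1859, 1402 and 1785 RPKM. The 20 highest genes made up 7.67% of the summed RPKM and the 1000 highest 48.6%. Ranked by reads per gene and not per length, 8 of the 20 remained among the 20 highest.

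Genes with near-identical copies were uncertain. Rpl10 was just under 1 RPKM, while Rpl8, a protein of the same ribosomal subunit, had 974 ± 37.3 RPKM (SD, n = 3). Hba-a1 and Hba-a2, which encode the same alpha globin, and Hbb-b1 were listed at 0 in all 3 libraries. Rps2 had 0.645, 34.4 and 0.331 RPKM, the largest CV of the genes at 5 RPKM or more. How reads that match several places were counted is not stated in any source used here.

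The pan-endothelial genes were the highest identity list. All 26 of 26 were members, against 52.4% of all listed genes, with a median of 125 RPKM beside 12.2 RPKM for all members. In the top 10% of members lay 19 of the 26. Ramp2 led with 951, 886 and 797 RPKM. Cd34, a sialomucin, followed with 555, 600.1 and 602 RPKM, and no library of Cd34 reached one of Ramp2. Egfl7, Cdh5, Pecam1, Eng, Esam and Tie1 formed a group of close levels, with means from 394 down to 325 RPKM, in which each gene overlapped the next. Tie1, an orphan receptor kinase of endothelium, had the smallest spread of the list, with 320.3, 325 and 329 RPKM (CV 1.28%). At the lower end lay She, Ptprb (a phosphatase of endothelial junctions) and Myct1 with means of 30.8, 24.3 and 20.04 RPKM, each apart from the next. Vwf, the clotting factor of mature vessels, had 46.97, 45.04 and 52.2 RPKM.

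Promoters are shown for 4 of these high genes, to set the letters beside the levels. They come from RefSeq (build GRCm38.p6, another build than the authors' mm9), and each window runs from 250 bases before to 50 bases after the start of transcription. ETS factors bind a core of GGAA. The letters AGGAAG, read on both strands, stood in 12 of 19 promoters of the 16 pan-endothelial genes found in the table, of 26 listed (63.2%). They stood in 35.4% of all 32851 promoters of that length and in 32.5% of those of members. Of the 6 other lists searched, the ETS factor genes themselves (54.2% of 24 promoters) and the erythroid markers (4 of 8 promoters) also lay above the share of all promoters, and the others ran from 9.09% to 33.3%. Genes of the pan-endothelial list with the letters were Tie1, Flt1, Eng, Emcn, Robo4, Egfl7, Eltd1, Gpr116, Cd34, Rasip1 and Myct1. The GC box letters GGGCGG, read on both strands, showed the reverse order, with 26.3% of the pan-endothelial promoters against 35.7% of all and 63.6% of those of members. The TATA box letters TATAAA stood in 2 of the 19 and in 13.6% of all. Of the letters of forkhead (TGTTTAC), TCF/LEF (CTTTGAT) and Sox factors (ACAATG), the first and second stood in 1 of the 19 promoters each and the last in none, beside 3.65%, 3.73% and 12.6% of all. None of these motifs contains another, and a promoter can hold several, as that of Flt1 does. They are descriptions, and their part in the levels was not tested.

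Tie1 at chr4:118489800-118490099 (minus strand) and Egfl7 at chr2:26580833-26581132 (plus strand), the first of 3 listed starts, are printed 5′ to 3′ with AGGAAG or its reverse complement in capitals. The barrier genes Cldn5 at chr16:18776597-18776896 (plus strand) and Slc2a1 at chr4:119108495-119108794 (plus strand) hold no AGGAAG in this window and are printed with the GC box letters or their reverse complement in capitals.
Tie1: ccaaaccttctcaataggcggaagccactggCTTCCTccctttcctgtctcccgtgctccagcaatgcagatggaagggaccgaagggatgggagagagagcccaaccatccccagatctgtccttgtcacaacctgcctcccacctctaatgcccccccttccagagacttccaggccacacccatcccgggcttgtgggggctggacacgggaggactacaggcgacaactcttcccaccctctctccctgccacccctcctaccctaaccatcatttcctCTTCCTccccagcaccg
Egfl7: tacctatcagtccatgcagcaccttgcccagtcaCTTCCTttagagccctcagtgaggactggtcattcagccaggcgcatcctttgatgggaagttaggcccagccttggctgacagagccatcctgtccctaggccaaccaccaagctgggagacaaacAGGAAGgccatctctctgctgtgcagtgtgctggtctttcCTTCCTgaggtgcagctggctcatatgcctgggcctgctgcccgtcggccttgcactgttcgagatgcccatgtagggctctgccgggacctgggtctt
Cldn5: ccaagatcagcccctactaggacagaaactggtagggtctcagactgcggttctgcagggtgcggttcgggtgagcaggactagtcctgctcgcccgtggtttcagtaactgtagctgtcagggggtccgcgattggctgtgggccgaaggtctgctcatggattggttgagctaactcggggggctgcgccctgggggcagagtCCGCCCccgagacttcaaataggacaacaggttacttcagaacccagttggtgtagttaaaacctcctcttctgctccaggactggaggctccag
Slc2a1: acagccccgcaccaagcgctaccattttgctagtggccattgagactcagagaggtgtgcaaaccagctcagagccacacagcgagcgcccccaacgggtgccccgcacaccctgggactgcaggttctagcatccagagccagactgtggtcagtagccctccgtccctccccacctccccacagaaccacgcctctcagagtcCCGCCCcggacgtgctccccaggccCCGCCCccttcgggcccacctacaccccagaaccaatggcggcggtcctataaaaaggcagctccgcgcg

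All genes of the artery, vein and tip cell lists were members, against 52.4% of all listed genes, with medians of 46.9, 48.1 and 49.6 RPKM. In such preparations of many cells, fewer cells of a type and less RNA per cell cannot be told apart, here and for every level that follows. None of the 6 libraries holds RNA from before the purification. For transcripts of other cell types, the share carried through the purification thus cannot be told apart from these either. Of the artery-associated genes, Gja4, a connexin, was the highest with 218, 202 and 199 RPKM. The Notch ligand genes Jag2 and Dll4 had means of 57.2 and 51.9 RPKM, and the ephrin gene Efnb2 52.1 RPKM. Their effectors Hey1 and Hey2 differed, with 46.6 ± 0.687 RPKM and 4.18 ± 0.743 RPKM. Mgp, a matrix protein of arterial walls, was low and uneven with 5.46, 8.12 and 3.98 RPKM, the only gene of that list with a CV over 30%. Gkn3 and Bmx, genes of mature arteries, had 3.94 and 3.10 RPKM.

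Of the vein-associated genes the amino acid carrier gene Slc38a5 and the apelin receptor gene Aplnr were the highest, with 293, 269 and 263 RPKM and 261, 282 and 256 RPKM, and their ranges overlapped. Ephb4, the receptor for ephrin-B2, had 80.3 ± 3.52 RPKM (SD, n = 3), above Efnb2 in every library. Nr2f2, the regulator of vein identity, had 33.4 ± 1.64 RPKM (SD, n = 3). Darc, a marker of venules in the adult, and Vcam1 had 7.85 and 6.63 RPKM. Tip cells lead the growing sprout. Their basement membrane gene Nid2 had 342 ± 12.1 RPKM, and the ligand genes Apln, with 132, 167 and 157 RPKM, and Pdgfb, with 134, 150.1 and 142 RPKM, overlapped each other and Igfbp3. The tip cell genes Angpt2, Adm, Esm1, Plaur and Kcne3 were lower, with means between 7.88 and 15.4 RPKM. Adm and Kcne3 had CVs of 24.1% and 23.1%, and replicate 3 was the highest for 10 of the 14 genes, against 31.0% of all members.

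Barrier carriers spanned a wide range, with a few genes far above the rest. Over the 8 barrier lists, 87 of 102 genes were members (85.3%), against 52.4% of all listed genes and 78.3% of the lists of other cell types. The members had a median of 21.3 RPKM, and 27 lay in the top 10%. For sugar, Slc2a1 stood at 722 RPKM while Slc2a3, the glucose carrier of neurons, had 1.80, 1.74 and 1.68 RPKM, a ratio of 387, 409.9 and 449.95 in the 3 libraries. Bsg, the chaperone of lactate carriers, had 844 ± 44.4 RPKM (SD, n = 3), whereas the lactate carrier gene Slc16a1 itself had 4.61, 4.16 and 4.08 RPKM and Slc16a3 1.78 ± 0.196 RPKM. Slc16a4, a relative of these carriers, had 8.17 ± 0.209 RPKM. Among lipid carriers Mfsd2a was followed by Spns2, which exports sphingosine-1-phosphate, with 50.6, 59.4 and 51.5 RPKM. The fatty acid transport genes Slc27a4, Slc27a3 and Slc27a1 had means of 19.02, 5.72 and 5.01 RPKM. Fabp5, a fatty acid binding protein, had 12.1 ± 2.58 RPKM, and Fabp4, that of peripheral capillaries, was not a member (0.145 RPKM).

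Amino acid carriers had a median of 42.8 RPKM over 20 members of 22 genes and 18.1 RPKM over all 22. The metal ion carriers, all 11 of them members, had 29.6 RPKM, so that the order of these 2 lists turns with the limit of 1 RPKM. Of all listed genes 52.4% were members. Slc7a5, the light chain of the large neutral amino acid carrier, had 811, 820.4 and 775 RPKM. Its heavy chain Slc3a2 had 285, 266 and 294 RPKM, so that the light chain exceeded its partner 2.84, 3.08 and 2.64 times. Slc3a2 and the glutamine carrier gene Slc38a5 overlapped, as did Slc38a2 (224 ± 12.2 RPKM) and the cationic amino acid carrier gene Slc7a1 (208 ± 10.5 RPKM). Slc38a3 and Slc1a4 came next with 159.6 and 119 RPKM, followed by the taurine carrier gene Slc6a6 (87.7) and the nucleoside carrier gene Slc29a1 (74.7). The creatine carrier gene Slc6a8 had 12.2 RPKM. The vitamin carrier genes were low, with 9.13 RPKM for Slc19a1 (folate), 2.77 for Slc19a3 (thiamine), 2.76 for Slc5a6 (biotin and pantothenate) and 6.86 for Slc52a3 (riboflavin). Slc7a2 and Slc7a3 were not members (0.533 and 0.126 RPKM).

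The thyroid hormone carrier gene Slco1c1 had 100.4, 80.9 and 99.5 RPKM and exceeded its relative Slco2b1 (30.2 ± 2.16 RPKM) in every library. Slco1a4, an organic anion carrier that is abundant in adult brain vessels, was not a member, with 0.552, 0.442 and 0.515 RPKM. The organic anion carrier genes Slc22a8 and Slc22a6 were highest in replicate 1, with 28.6, 21.8 and 21.4 RPKM and 7.40, 4.17 and 4.63 RPKM. Several lists of other cell types, described below, also had their highest sum in replicate 1. Among them the meningeal fibroblast markers summed to 826, 458 and 497 RPKM. The part of these lists in the 2 genes was not tested. For metals, the zinc and manganese carrier gene Slc39a8 had 131, 127 and 133 RPKM, Slc39a10 91.8 ± 4.35 RPKM and the iron exporter gene Slc40a1 73.8 ± 3.51 RPKM. The transferrin receptor gene Tfrc was lower and highest in replicate 1, with 38.2, 25.98 and 26.7 RPKM. Erythroid cells express it too, and their markers summed to 166, 138 and 119.8 RPKM, highest in replicate 1 as well, and their part was not tested. The globin genes Hba-a1, Hba-a2 and Hbb-b1, listed at 0 as described above, add nothing to these sums.

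Among the efflux pumps Abcg2 was far the highest, with 115, 116 and 126 RPKM. Abcb1a, a gene for P-glycoprotein, the best known pump of the mature barrier, had 15.6, 14.3 and 17.6 RPKM, and Abcg2 exceeded it 7.35, 8.09 and 7.18 times. The lipid exporter genes Abca1 and Abcg1 lay between them with 43.6 and 24.4 RPKM. Of the multidrug resistance proteins, Abcc5, Abcc4 and Abcc1 were members (9.02, 3.83 and 1.95 RPKM), while Abcc6, Abcc3 and Abcb1b were not (0.578, 0.199 and 0.254 RPKM). Abcc2 was listed at 0 in replicates 1 and 2. All 6 pairs of neighbours among the 7 members were apart, with no overlap of their 3 values. Lrp8, a receptor of the lipoprotein receptor family, had 105 ± 10.5 RPKM and the insulin receptor gene Insr 21.3 ± 0.734 RPKM. Enzymes that mark mature brain capillaries were low: Alpl and Car4 had 1.80 and 1.53 RPKM, and Ggt1 was not a member (0.509 RPKM), nor was Ager (0.360 RPKM), the receptor for glycation end products.

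**Figure D2:**
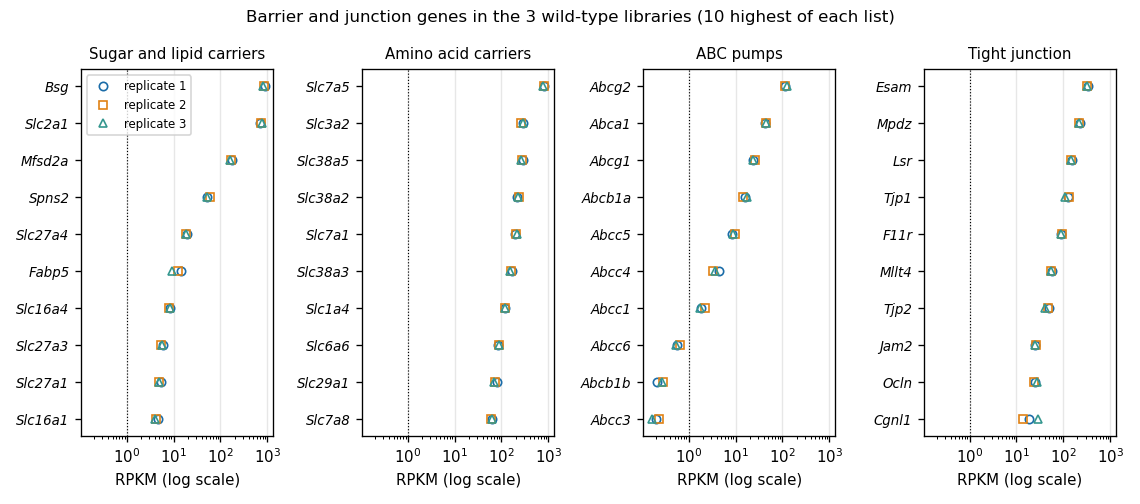
RPKM (horizontal, log scale) of the 10 highest genes of 4 lists, with a symbol for each of the 3 libraries and a dotted line at 1 RPKM. The symbols of most genes lie on top of each other, and Abcg2 lies apart from Abcb1a, while Cgnl1 is spread out.

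Genes of vesicle coats and caveolae were high. Cltc, the clathrin heavy chain, had 602 ± 52.2 RPKM (SD, n = 3). Of the caveola genes, Ptrf, Cav1 and Prkcdbp had 198 ± 8.35 RPKM, 190.1 ± 1.14 RPKM and 175 ± 2.08 RPKM, and Cav2 44.5 ± 1.96 RPKM. Sdpr, another cavin, was lower with 14.2, 10.6 and 13.9 RPKM, and the muscle forms Murc and Cav3 were not members (0.406 and 0.0150 RPKM). Plvap, the diaphragm protein of fenestrated vessels, had 78.1, 80.6 and 94.4 RPKM. Mfsd2a exceeded Plvap 2.26, 2.13 and 1.72 times in the 3 libraries. Genes of peripheral capillaries were low, with 4.83 RPKM for Gpihbp1, the anchor of lipoprotein lipase, and 0.532 RPKM for the fatty acid receptor gene Cd36, which was not a member. Of the leukocyte adhesion genes, Icam2 had 119 ± 2.39 RPKM, Icam1 23.96 ± 0.604 RPKM and Madcam1 10.6 ± 0.251 RPKM. The selectin gene Sele had 5, 2 and 2 reads and Selp 1 read in each library (0.0175 and 0.00581 RPKM).

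Cldn5 stood alone among claudins and made up 93.2% of the summed RPKM of the 21 genes. Only 5 of them were members (23.8%, against 52.4% of all listed genes), and the median of all 21 was 0.176 RPKM. Cldn12, described in brain vessels, had 6.85, 6.999 and 6.75 RPKM, which Cldn5 exceeded 197, 184 and 169.9 times. Cldn1 was a member with 1.57, 1.16 and 1.39 RPKM, and Cldn3 was just under the limit with 1.02, 0.754 and 0.957 RPKM. Cldn11, a claudin of myelin and of the arachnoid, had 66.2, 38.8 and 33.001 RPKM and a CV of 38.5%. Replicate 1 was the highest here, as it was for the meningeal markers (826, 458 and 497 RPKM) and for several other lists of other cell types. Their part was not tested. The gene listed as Cldn25, a synonym of Cldnd1 in RefSeq, had 35.6 ± 2.18 RPKM. Cldn8 and Cldn18 were listed at 0.

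The other tight junction genes were more even, with 22 members of 25, against 52.4% of all listed genes, and a median of 18.8 RPKM over the members and 17.5 RPKM over all. Esam, an adhesion molecule, led with 341, 325 and 326 RPKM, followed by the scaffold gene Mpdz with 222, 217 and 217 RPKM and Lsr, which recruits tricellulin to the corners of cells, with 156, 149 and 143 RPKM. Each stood apart from the next, as did Tjp1 (122 ± 14.1 RPKM) and F11r (90.8 ± 3.13 RPKM). Of the junctional adhesion molecules, F11r was thus followed by Jam2 (25.4 ± 0.338 RPKM) and Jam3 (11.5 ± 1.02 RPKM). Ocln, which encodes occludin, had 25.004, 23.9 and 27.1 RPKM, so that Cldn5 exceeded it 53.98, 54.02 and 42.3 times. Marveld2, tricellulin, had 9.98 ± 1.31 RPKM. Cgnl1, paracingulin, was uneven with 18.3, 14.05 and 28.3 RPKM and its CV of 36.3% was the largest of the members of this list. Its relative Cgn, which is epithelial, had 1.49 RPKM. Tjp3, Marveld3 and Ildr1 were not members (0.623, 0.131 and 0.0101 RPKM).

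Of the adherens junction genes Ctnnb1, which encodes beta-catenin, was the highest with 727, 674 and 705 RPKM. Cdh5 and Pecam1 came next and overlapped. Cdh2, N-cadherin, which endothelium shares with neural cells and pericytes, had 153, 135 and 148 RPKM, below Cdh5 in every library. The catenin genes Ctnnd1 and Ctnna1 overlapped, with 123 ± 6.71 RPKM and 120.2 ± 5.53 RPKM, and the plakoglobin gene Jup had 52.7 ± 0.381 RPKM. Cdh1, E-cadherin, was the most uneven of the list, with 13.1, 4.60 and 5.91 RPKM (CV 58.2%), highest in replicate 1. Of 20 connexin genes 7 were members (35.0%, against 52.4% of all listed genes). Gja4 led with 206 ± 9.90 RPKM, then Gja1 with 115, 90.5 and 99.6 RPKM, Gja5 with 41.7, 39.3 and 48.6 RPKM and Gjc1 with 31.4 ± 2.94 RPKM, each apart from the next. Gjb2 and Gjb6, which meningeal cells also express, had 16.6, 11.2 and 10.8 RPKM and 15.8, 9.43 and 11.4 RPKM, highest in replicate 1. The meningeal sums of 826, 458 and 497 RPKM and those of several other lists of other cell types were highest there too, and their part was not tested.

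The VEGF and angiopoietin receptor genes stood in an order in which no neighbours overlapped. Tie1 (325 ± 4.16 RPKM) lay above Kdr, the main VEGF receptor, with 207, 197 and 216 RPKM, and Kdr above Tek, the angiopoietin receptor, with 87.6, 83.1 and 95.3 RPKM. Nrp1, Flt1, Nrp2 and Flt4 followed with means of 62.3, 52.7, 44.2 and 36.8 RPKM. Flt1, which binds VEGF as a decoy, was exceeded by Kdr 3.95, 3.88 and 3.91 times. Replicate 3 was the highest for all 7 genes, against 31.0% of all members, by small amounts (CVs from 1.28% to 6.99%). The median CV of the list was 4.36%, and 2.30% without replicate 3. That of all members fell as well, from 6.86% to 6.31%. Replicate 3 was left out as the extreme of this list, a choice that itself favours a fall.

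For Wnt reception, Gpr124 (Adgra2), the co-receptor for Wnt7 ligands, had 79.9, 89.9 and 72.2 RPKM and led its list. Its partner Reck had 9.60, 8.79 and 9.38 RPKM, lower in every library. Fzd6 was the highest Frizzled receptor gene with 55.9, 63.3 and 62.6 RPKM. Fzd4, the Norrin receptor, had 16.1, 17.8 and 17.9 RPKM and overlapped Fzd10 (18.2 ± 1.18 RPKM) and Lrp6 (17.2 ± 1.63 RPKM). Fzd6 exceeded Fzd4 3.48, 3.56 and 3.50 times. The co-receptor gene Lrp5 had 38.3 ± 1.73 RPKM, and Tspan12, which strengthens Norrin signalling, 34.01 ± 1.64 RPKM. Fzd5, Ror1, Lgr5 and Lgr6 were not members, with 0.712, 0.899, 0.0755 and 0.0383 RPKM. Of the ligands, Wnt7b and Wnt7a had 20.6, 17.5 and 17.2 RPKM and 4.28, 4.43 and 3.61 RPKM, and Ndp, Norrin, 1.31, 1.20 and 0.975 RPKM. Neural progenitors are the known source of Wnt7, and their marker Sox2 had 35.7, 28.4 and 36.7 RPKM in the same libraries, whose part was not tested.

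Eng, a co-receptor of TGF-beta and BMP, made up 54.2% of its list with 326, 349 and 345 RPKM. Tgfbr2 had 93.7, 93.8 and 93.2 RPKM, among the smallest spreads described here (CV 0.328%), and Acvrl1, the BMP9 receptor ALK1, 82.9, 85.1 and 88.8 RPKM. The other type I receptor genes Acvr1, Tgfbr1, Acvr1b and Bmpr1a were lower, with 22.2, 14.4, 12.1 and 5.77 RPKM, and Bmpr1b and Acvr1c were not members (0.553 and 0.0388 RPKM). Adamtsl2, a secreted protein that modulates TGF-beta and is named in the study's title, had 51.2, 53.3 and 45.3 RPKM. Of the Notch genes, Jag2, Dll4 and Notch4 overlapped, with 57.2 ± 4.50 RPKM, 51.9 ± 3.57 RPKM and 51.6 ± 3.58 RPKM. Notch1 had 29.4 ± 1.67 RPKM and Jag1 22.2 ± 1.66 RPKM. Notch3, a receptor of pericytes and smooth muscle, had 14.2, 13.04 and 18.4 RPKM.

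The guidance receptor genes Plxnd1, which senses semaphorins, and Robo4 had 167 ± 3.20 RPKM and 142 ± 3.34 RPKM, with Efna1 at 167 ± 4.53 RPKM. Among G protein-coupled receptors Aplnr (266 ± 14.1 RPKM) led the receptors proper, followed by Eltd1, S1pr1, Adora2a and Cxcr4 with 85.5, 75.9, 55.4 and 47.3 RPKM. Calcrl, the receptor that Ramp2 accompanies, had 18.9, 22.7 and 22.8 RPKM, far below Ramp2. Adora2b was the only member there with a CV over 30%, with 0.638, 1.64 and 1.25 RPKM. S1pr5, F2rl1, Agtr1a and Ptger4 were not members, with at most 0.181 RPKM. Of the cytokine receptors, Tnfrsf1a, Ltbr and Ifnar1 led with 76.9, 68.8 and 55.3 RPKM, and Met and Erbb3 were not members (0.773 and 0.0897 RPKM). Integrin beta-1, Itgb1, had 149 ± 9.32 RPKM and made up 46.3% of its list. Of the alpha subunits the fibronectin receptor gene Itga5 led with 59.2 ± 0.777 RPKM. The laminin receptor gene Itga6 (24.2, 19.9 and 29.5 RPKM) and Itga1 (21.1 ± 2.21 RPKM) came next and overlapped. Itgb3, Itgb4 and Itga8 were not members (0.701, 0.520 and 0.556 RPKM).

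Of 30 ligand genes 29 were members, against 52.4% of all listed genes. Their median of 10.5 RPKM lay under the 12.2 RPKM of all members. Igf2, the fetal growth factor, was the highest with 289, 279 and 264 RPKM. Apln and Pdgfb, which recruits pericytes, came next, followed by Tgfb1 with 77.5, 89.6 and 78.2 RPKM and the chemokine gene Cxcl12 with 73.1 ± 1.66 RPKM. The VEGF ligand genes ran in the order Vegfb (19.3 ± 0.854 RPKM), Vegfc (17.6 ± 1.31 RPKM) and Vegfa (4.40 ± 0.563 RPKM), and Figf (VEGF-D) was not a member (0.152 RPKM). Of the angiopoietins, Angpt2 (15.4 ± 2.50 RPKM), which endothelium makes, exceeded Angpt1 (1.16 ± 0.197 RPKM), which pericytes make, in every library. The endothelin gene Edn1 had 10.5 ± 1.32 RPKM. Bmp6 and Bmp4 had 9.22 and 4.46 RPKM. Bmp7, which meningeal cells make, had 27.03, 18.4 and 19.1 RPKM and was highest in replicate 1. The meningeal markers summed to 826, 458 and 497 RPKM, and several other lists of other cell types were highest in replicate 1 too. Their part was not tested.

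**Figure D3:**
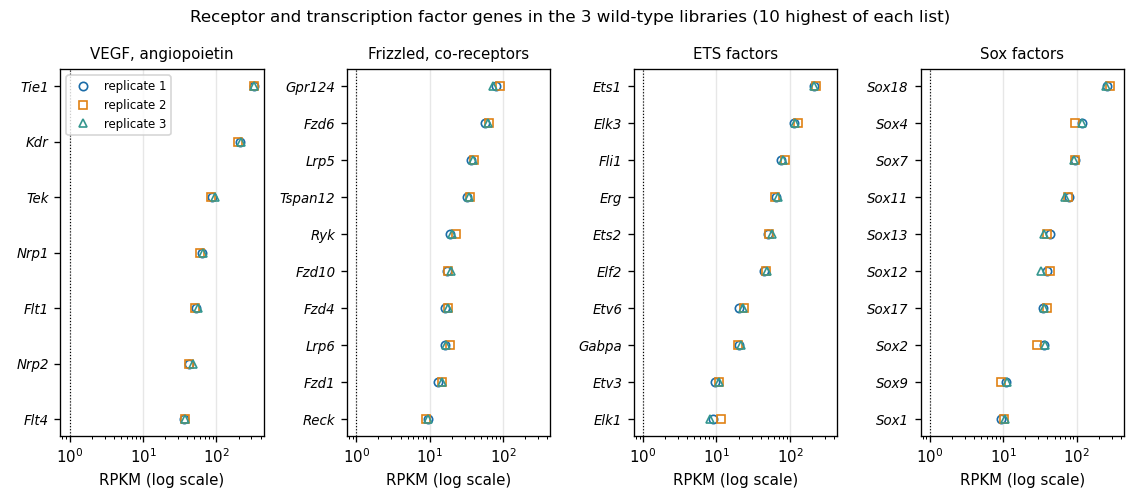
RPKM (horizontal, log scale) of the 10 highest genes of 4 receptor and transcription factor lists (the first has 7 genes), with a symbol for each of the 3 libraries and a dotted line at 1 RPKM. Tie1, Gpr124, Ets1 and Sox18 head their lists.

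Of 160 genes of the transcription factor lists 140 were members (87.5%), against 52.4% of all listed genes and 78.3% of the lists of other cell types. The members had a median of 19.5 RPKM, and 24 of them lay in the top 10%, above 60.01 RPKM. The ETS genes Ets1, Elk3, Fli1, Erg, Ets2 and Elf2 stood in that order, each apart from the next. Ets1 had 210.4, 230.3 and 214 RPKM, Fli1 75.3, 85.5 and 79.9 RPKM and Erg 63.7, 62.8 and 69.4 RPKM. Etv2, which starts the endothelial lineage in the early embryo, was listed at 0 in all 3 libraries. Ehf and Spib, of epithelium and blood, were not members (0.0208 and 0.00225 RPKM). Elk4 was uneven with 5.83, 11.2 and 6.80 RPKM. Replicate 1 was the lowest for 11 of the 16 ETS members, against 30.5% of all members.

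Of the SoxF genes, which act together in vessels, Sox18 had 256, 286 and 255 RPKM, Sox7 95.04, 93.8 and 91.9 RPKM and Sox17, the arterial member, 35.03, 39.9 and 36.1 RPKM. Sox18 exceeded Sox7 2.69, 3.05 and 2.78 times, and Sox7 exceeded Sox17 2.71, 2.35 and 2.54 times. Sox4 and Sox11, which neurons express, had 120.1, 93.7 and 118 RPKM and 77.6, 77.1 and 70.4 RPKM. Sox14 was the only member with a CV over 30% (2.54, 0.936 and 1.998 RPKM), and Sox10 was not a member.

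Foxf2, a forkhead factor of brain vessels and pericytes, had 160.4, 171 and 173 RPKM, and Foxq1 83.7, 90.9 and 79.9 RPKM. Foxl2 had 28.8 ± 1.42 RPKM and Foxo1, a brake on vessel growth, 24.4 ± 1.09 RPKM. Of the Zic genes, Zic2 (56.7 ± 2.99 RPKM) exceeded Zic1 (34.6 ± 4.15 RPKM) in every library, and Zic5 was low (1.85 RPKM). Foxs1, which marks pericytes, was not a member (0.589 RPKM).

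Among the Wnt effectors Tcf7 and Lef1 had 63.1, 64.8 and 64.3 RPKM and 51.9, 48.1 and 52.9 RPKM, and Tcf7l2 and Tcf7l1 32.4 ± 2.32 RPKM and 18.3 ± 1.05 RPKM. The pathway's targets differed widely in level. Apcdd1, a membrane-bound inhibitor of Wnt, had 703, 676 and 629 RPKM and ranked 27, while Nkd1 had 71.7 ± 6.40 RPKM, Axin2 19.3 ± 0.713 RPKM, Znrf3 4.04 ± 0.599 RPKM and Sp5 2.94 ± 0.0557 RPKM. Rnf43 was not a member (0.548 RPKM). Of the haemato-endothelial factors, Lmo2 and its partner Ldb1 had 246, 277 and 265 RPKM and 141, 130.3 and 133 RPKM, and the other members of that complex Tal1, Lyl1 and Gata2 had 18.3, 18.3 and 19.5 RPKM and overlapped. Klf2, which responds to blood flow, had 109, 108 and 93.3 RPKM, above Klf4 (16.5 ± 1.55 RPKM) in every library. Runx1, the factor of blood emergence, was not a member (0.122, 0.169 and 0.161 RPKM).

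Nuclear receptor genes were led by Thra (100.3, 112 and 89.1 RPKM) and Ppard (96.7, 97.5 and 89.6 RPKM), which overlapped. Pparg had 4, 1 and 2 reads and Vdr 3, 3 and 1 (0.0239 and 0.00935 RPKM). Replicate 2 was the highest for 13 of the 21 members, against 36.4% of all. Of the remaining regulators the BMP target gene Id3 led with 325, 346 and 308 RPKM. Epas1, the hypoxia factor of endothelium, followed with 162 ± 7.65 RPKM, and then Id1 with 134, 149 and 134 RPKM. Wwtr1 had 106 ± 5.45 RPKM, above Yap1 (44.6 ± 1.41 RPKM) in every library. Meox1 had 11.9 ± 1.23 RPKM, while Meox2 and Nkx2-3 were not members (0.506 and 0.707 RPKM).

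Basement membrane genes had 21 members of 23, against 52.4% of all listed genes. The members had a median of 91.97 RPKM, and 14 of them lay in the top 10%. After Sparc, the proteoglycan gene Agrn had 421, 361 and 423 RPKM and Hspg2, perlecan, 331, 324 and 316 RPKM. Col4a1 and Col4a2, the chains of the main collagen IV, had 287, 249.6 and 316 RPKM and 216, 179 and 238 RPKM. Of the laminin alpha chains Lama4 had 188, 142 and 150.2 RPKM, Lama5 78.6, 63.5 and 82.4 RPKM, Lama1 60.3 ± 3.76 RPKM and Lama2 9.34 ± 1.83 RPKM. Lama4 and Lama5 are the alpha chains of endothelium, whereas Lama1 and Lama2 are made by meningeal cells, pericytes and glia. Lamb3, of epithelial laminin, was not a member (0.159 RPKM). Replicate 2 was the lowest for 17 of the 21 members, against 38.4% of all members, and the median CV of 12.47% stood beside 6.86% for all. Without replicate 2 the median CV of the list was 5.23%, and that of all members fell as well, to 4.66%. Replicate 2 was left out as the extreme of this list, a choice that itself favours a fall. In replicate 2 the sums of the meningeal (826, 458 and 497 RPKM) and of the pericyte and smooth muscle markers (89.3, 75.2 and 87.2 RPKM) were the lowest as well. So were those of the neuron (715, 554 and 671 RPKM), neural progenitor (755, 613 and 668 RPKM), choroid plexus and oligodendrocyte markers. The erythroid, microglia, platelet and lymphatic sums were lowest in another replicate. The part of these cells was not tested.

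Transcripts of other cell types were present at levels that differed by type. Over these 10 lists 83 of 106 genes were members (78.3%), against 52.4% of all listed genes. The neuron, neural progenitor and meningeal lists were members in full, like the pan-endothelial list, so membership alone did not set endothelial lists apart. Neuron markers summed to 715, 554 and 671 RPKM over 14 genes, beside 5159, 5221 and 5142 RPKM for the 26 pan-endothelial genes, or 13.9%, 10.6% and 13.04% of it. Tubb3, the tubulin of neurons, had 324, 236 and 308 RPKM and lay close to Pecam1, which exceeded it 1.04, 1.57 and 1.14 times. The other neuronal genes ranged from 3.73 RPKM (Neurod1) to 68.2 RPKM (Stmn2), and Neurod6 was uneven with 30.9, 18.9 and 17.6 RPKM. All 14 were members, against 52.4% of all listed genes.

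Neural progenitor markers summed to 755, 613 and 668 RPKM. Nes, which growing endothelium also expresses, made up 54.99% of the sum with 411, 353 and 356 RPKM, and Fabp7, of radial glia, had 174, 118 and 146 RPKM. The progenitor factor genes Sox2, Pax6 and Eomes had means of 33.6, 10.2 and 12.8 RPKM, and Emx1 had 13.4, 7.42 and 9.29 RPKM (CV 30.6%). Replicate 2 was the lowest for 11 of the 14 progenitor and 9 of the 14 neuron markers, against 38.4% of all members.

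Pericyte and smooth muscle markers were low. Pdgfrb, the receptor that defines pericytes, had 4.33, 3.73 and 4.07 RPKM, and Pecam1 exceeded it 77.8, 99.3 and 86.3 times. Rgs5, Cspg4 and Acta2 had means of 5.79, 10.2 and 1.90 RPKM, and Vtn, the highest, 33.4 ± 4.02 RPKM. Ndufa4l2 was uneven (1.89, 1.27 and 0.880 RPKM). Des, Higd1b, Myh11 and Cnn1 were not members (0.887, 0.240, 0.0848 and 0.0441 RPKM). The list as a whole had 11 members of 15, against 52.4% of all listed genes. Its median was 4.04 RPKM over the members and 1.90 RPKM over all.

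Meningeal fibroblast markers summed highest in replicate 1, and the CV of their sum was 34.1%. The neuron, neural progenitor, choroid plexus, erythroid, pericyte and oligodendrocyte sums were also highest in replicate 1, with CVs from 3.36% to 16.7%. The microglia, platelet and lymphatic sums were highest in replicate 2. Ptgds, a prostaglandin synthase of the leptomeninges, made up 42.3% of the meningeal sum with 415, 164 and 173 RPKM. Crabp2 had 30.8, 15.7 and 17.4 RPKM and Col3a1 94.4, 47.3 and 73.9 RPKM. Col1a1 had 32.4, 20.3 and 21.003 RPKM and Aldh1a2, which makes retinoic acid in the meninges, 13.2, 8.19 and 8.63 RPKM. Replicate 1 was the highest for 10 of the 12 genes, against 32.6% of all members. Of the list, Cxcl12 (71.2, 74.4 and 73.6 RPKM) and Foxc1 (32.7, 32.8 and 29.2 RPKM) did not follow. Other vessel cells express both genes too, and their part was not tested. The median CV was 25.9%, and 4.49% without replicate 1. That of all members fell as well, from 6.86% to 6.05%. Replicate 1 was left out as the extreme of this list, a choice that itself favours a fall.

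Choroid plexus markers rested on Ttr, transthyretin, with 166, 121 and 142 RPKM and 88.8% of the sum, while Otx2, Clic6 and Folr1 had 4.99, 4.94 and 3.51 RPKM and Kcnj13 had 1.48, 0.682 and 0.904 RPKM. Kl was not a member. Of the erythroid genes the embryonic globin gene Hbb-y had 105, 81.99 and 86.8 RPKM, Hbb-b2 44.3, 42.2 and 21.8 RPKM and Hba-x 13.9, 10.6 and 7.72 RPKM. Klf1, Gata1 and Slc4a1 were not members, with at most 0.252 RPKM. Hba-a1, Hba-a2 and Hbb-b1 were listed at 0, as described above, so the erythroid sum leaves out these globins. Microglia and macrophage markers were low and even, with 11 members of 13, against 52.4% of all listed genes, and sums of 44.997, 48.2 and 45.5 RPKM. Tyrobp had 7.93 ± 0.203 RPKM and Csf1r 3.27 ± 0.250 RPKM, and Ptprc was not a member (0.110 RPKM). Platelet genes summed to 14.6, 18.2 and 13.99 RPKM, led by Pf4 (7.81 ± 0.729 RPKM). Of the oligodendrocyte lineage Olig2 had 2.81 ± 0.0471 RPKM, Mbp, of myelin, 1.92 ± 0.0388 RPKM, and Mog and Sox10 were not members.

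The lymphatic list did not behave as a set. Reln, secreted by lymphatic vessels and by Cajal-Retzius neurons, had 175, 226 and 129 RPKM and ranked 238, with 76.5% of the sum. Prox1, which defines lymphatic endothelium, had 3.81, 3.24 and 4.16 RPKM and Lyve1 2.94, 3.07 and 3.29 RPKM. Flt4, which blood vessel tips express too, had 35.998, 36.95 and 37.3 RPKM. Replicate 2 was the highest for Reln and replicate 3 the lowest, with a CV of 27.5%.

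**Figure D4:**
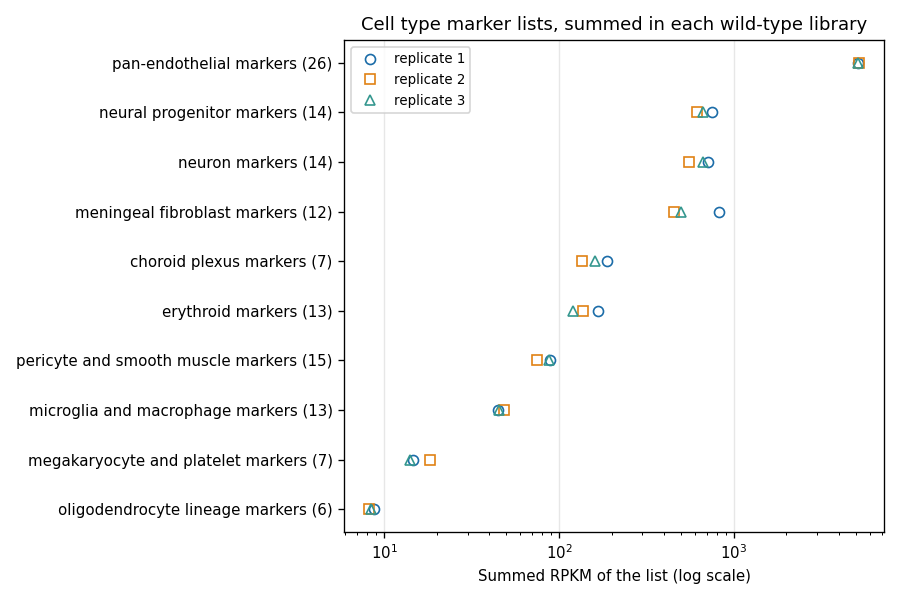
Summed RPKM (horizontal, log scale) of 10 cell type marker lists in each of the 3 wild-type libraries, with the number of genes in brackets. The pan-endothelial sums coincide between libraries, and the meningeal sum of replicate 1 lies to the right of the other two.

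Spread between libraries was smaller in the bands of higher level up to 500 RPKM. The median CV was 9.88% for the 3158 members between 1 and 5 RPKM, 6.01% for the 5457 between 10 and 50 RPKM and 4.44% for the 546 between 100 and 500 RPKM. The 46 members at 500 RPKM or more had a higher median CV again, of 5.01%. Counting alone would give medians of 4.92%, 1.73%, 0.794% and 0.360% in these ranges, so the libraries differed beyond counting error at every level shown. By list, the pan-endothelial genes had a median CV of 4.46%. The lists of other cell types as a family had 13.3%, against 5.71% for the identity, 6.06% for the junction and 6.99% for the barrier family. The families also differ in level, with medians of 10.02, 62.3, 24.3 and 21.3 RPKM in the same order. Across the 12494 members, the log2 ratio of replicate 1 to the other two had a Spearman correlation of -0.304 with transcript length, beside 0.140 for replicate 2 and 0.114 for replicate 3. Across the 12314 members with a GC content, the ratio of replicate 3 had a correlation of -0.285 with it, beside 0.188 and 0.0708 for replicates 1 and 2. Genes of a library share its depth and preparation, so these are descriptions of the libraries.

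The 10 genes with the largest CV at 5 RPKM or more were Rps2, Fbp1, Lbp, Gm1943, Erdr1, Cdh1, Eif3j2, Ptgds, AA465934 and Pou6f1, with CVs from 52.95% to 166%. Fbp1, an enzyme of gluconeogenesis, had 6.66, 22.2 and 0.851 RPKM and stood out in replicate 2. Lbp, which binds bacterial lipopolysaccharide, had 7.14, 5.10 and 18.3 RPKM and stood out in replicate 3. Pou6f1, a transcription factor of neurons, had 33.2, 62.5 and 22.3 RPKM, highest in replicate 2. No replicate was the highest for most genes, and none was the lowest for most. Replicates 1, 2 and 3 were the highest for 32.6%, 36.4% and 31.0% of members and the lowest for 30.5%, 38.4% and 31.1%. Replicate 2 was thus both the highest and the lowest more often than either other replicate. The median absolute log2 ratio was 0.129 between replicates 1 and 2 and 0.123 between replicates 2 and 3. Between replicates 1 and 3 it was 0.0949.

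**Figure D5:**
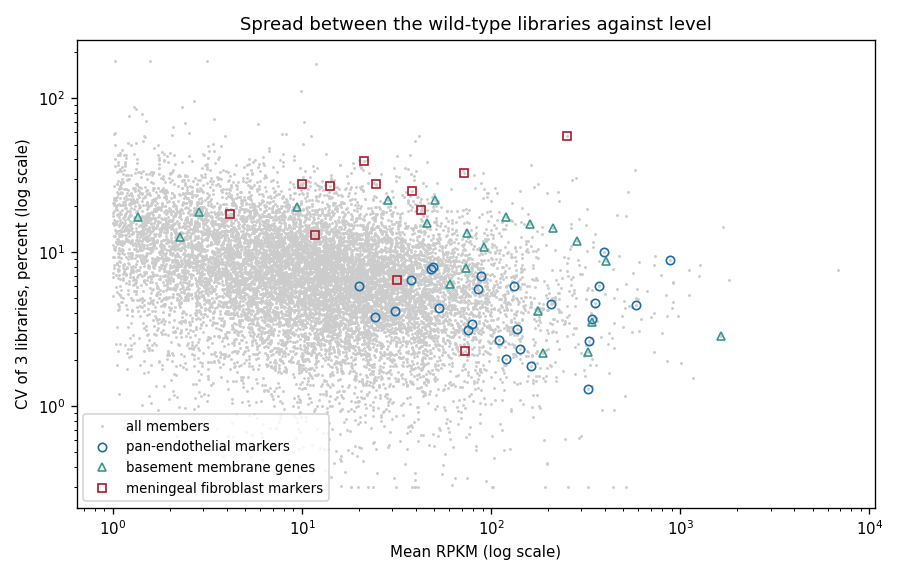
CV of the 3 libraries in percent (vertical, log scale, values under 0.3 drawn at 0.3) against mean RPKM (horizontal, log scale) for all members in grey and 3 lists in colour. The pan-endothelial genes lie between 1.28% and 10.1%, and 9 of the 12 meningeal genes lie above 15%.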

How the data were processed

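Ribosome-bound, polyadenylated RNA of brain endothelial cells was purified by translating ribosome affinity purification and sequenced, per the labels' protocols. Bowtie, DESeq and the mm9 genome are listed, without versions, per the submitters' processing notes, as what the authors used. Counter, filters and the handling of reads with several matches were not given in the sources used here. The deposited table lists 23827 genes by symbol, with 500 rows that repeat a symbol and a value per library. No header names their unit. The deposited values behave as RPKM, since the transcript lengths they imply had a median of 0.988 times the reference length over 11528 genes. For 73.3% of these the implied length was within 10% of the reference, so levels of genes whose models differ compare less well. The deposited mean signal per group, a normalised read mean by the authors, was used to recover reads. They came out whole within 0.05 for 100% of values of genes with a single transcript and 85.4% of all. For genes with several transcripts, 3027 of the members, the share was 29.8%. Most recovered reads and counting CVs of these genes thus lack this check. The kit does not mark strand, so overlapping and antisense genes cannot be told apart.

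Means, SDs and CVs were taken over the 3 wild-type libraries with Python 3.11.15, numpy 2.4.6, pandas 2.3.3 and scipy 1.17.1, after the same steps had been tested on simulated data. Levels were left on the deposited scale. The limit of 1 RPKM defined members. Neighbours in a list were called apart where none of their 3 values overlapped. The 43 gene lists (662 listed genes) and the members were chosen with earlier results of these data known. Genes were named by this rule: the 5 markers, the 5 highest of each list, defining members under 1 RPKM, members with a CV over 30%, the 20 highest genes, and the 10 with the largest CV at 5 RPKM or more. Other named genes complete a family, chosen once their values had been seen. A gene in several lists counts in each. Symbols are those of the table, which are older for some genes. Some genes that the rule names are not reported here. Alternatives were other scalings, limits, pseudocounts of 0.1, 1 and 10 RPKM, and leaving out each library.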

Additional observations from a re-analysis of the deposited data

How the results depend on the processing

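The list members at 1 RPKM or more stayed within 1.5 times of their number under 3 rescalings (library factors between 0.990 and 1.007) and without each library in turn. The 5 markers stayed within 1 SD, but this could not come out otherwise. Leaving out 1 of 3 values always moves a mean by less than 1 SD, and the rescalings were small beside the markers' CVs. Without single libraries the mean of Cldn5, for instance, ran from 1219 to 1320 RPKM. The number of all genes at the limit ran from 12472 to 12500 without single libraries, and was 12268 with the limit set in each library, 13434 at 0.5 RPKM, 9336 at 5 RPKM and 13853 where each library was rescaled to a sum of 1000000. The median level over all listed genes of a list, with no limit of 1 RPKM, was lower in 30 of 43 lists, by construction since low genes enter, and in 24 by more than the spread between libraries. In these 24 it was 8.17 RPKM for sugar and lipid carriers, 18.1 for amino acid carriers, 12.6 for thyroid hormone carriers, 3.83 for ABC pumps and 7.37 for transcytosis receptors. It was 35.0 RPKM for caveola genes, 5.73 for peripheral capillary genes, 0.176 for claudins, 17.5 for other tight junction genes and 0.0922 for connexins. It was 9.15 RPKM for Frizzled receptors, 4.96 for G protein-coupled receptors, 19.3 for cytokine receptors, 2.23 for integrins, 9.62 for ETS, 10.3 for Sox and 19.8 for TCF factors. It was 8.74 RPKM for nuclear receptors, 74.8 for basement membrane genes, 1.35 for oligodendrocyte, 1.90 for pericyte, 0.207 for erythroid, 3.09 for microglia and 0.701 for platelet markers. Without single libraries the median ran from 123.7 to 126 RPKM for pan-endothelial genes and from 26.3 to 30.1 RPKM for metal carriers, by more than the spread of the library medians. The median CV of all members ran from 4.66% without replicate 2 to 6.31% without replicate 3. Over 44 medians, counting that of all members, it moved by over 1.5 times in 9, 18 and 12 without replicates 1, 2 and 3, and the cause was not tested. No paired analysis was possible because a single group was described and no test was made. With 3 libraries a CV is itself imprecise, and levels near 3 reads are set by counting error.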

Other observations

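Myt1l, a zinc finger factor of neurons, had 593, 766 and 374 RPKM and ranked 35, above every other neuronal gene named here, and it was the highest in replicate 2, where 9 of the 14 neuron markers were the lowest. Ribosomal protein genes, by symbol, numbered 76 among the members, with a median of 29.7 RPKM and 2.60% of the summed RPKM. Rpl8 was the highest of them (974 ± 37.3 RPKM). Ribosomal protein genes under 1 RPKM, such as Rpl10, were left out of these figures. Levels of genes with near-identical copies are uncertain, as described above, and so are this median and share.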
